A study of Mus musculus with 6 samples.

Results

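The genes described here are 10 circadian clock genes read in kidneys of wild-type (WT) and Selenbp1-knockout (Selenbp1-KO) mice. The first 7, Dbp, Tef, Per1, Per2, Per3, Nr1d1 and Nr1d2, belong to the phase of the clock in which Dbp is high. The other 3, Arntl, Npas2 and Nfil3, belong to the opposite phase. All 10 were found on the array by gene name, as 23 of its 56605 probes and 10 of its 37325 genes. They were chosen by their measured differences between the genotypes on these same arrays, so those values are a description and carry no test.

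Selenbp1, selenium-binding protein 1, is highly expressed in the mouse kidney, and the study compared mice with and without it to learn what it does there. The WT group was 3 male C57BL/6J mice bought from a breeder, and the Selenbp1-KO group was 3 male mice of a Selenbp1 knockout line, whose deleted part is not given in the sources used here. Mice of both groups were 8 weeks old, kept under the same light/dark cycle and fasted for 20 h, and the whole left kidney was taken from each, so no group was fed. The groups were thus not littermates, and the source of the mice and their genotype cannot be told apart. The hour at which each kidney was taken is not given in the sources used here. RNA of each mouse was labeled with a single dye and hybridized to its own array. The WT arrays are numbered 2 to 4 and the Selenbp1-KO arrays 1 to 3. All lie on 1 slide, with WT replicates 2 and 3 on slide side 1 and WT replicate 4 and the 3 Selenbp1-KO replicates on slide side 2.

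The mammalian clock is a feedback loop of transcription that runs in nearly every cell, the kidney's included. CLOCK or NPAS2, paired with ARNTL (also called BMAL1), binds E-boxes and switches on the Per, Cry, Nr1d1, Nr1d2, Dbp and Tef genes, and the PER and CRY proteins then turn this activation off. NR1D1 and NR1D2 (REV-ERB alpha and beta) repress Arntl, Npas2 and Nfil3 through ROR elements, so that these genes are high when the Dbp phase is low. The output factors DBP and TEF activate genes through D-boxes, and NFIL3 represses at the same sites. In the kidney, rhythmic genes include transporters of salt and water.

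Stretches of the members' promoters that hold letters of these elements are printed to show what such letters look like. The windows are those of RefSeq on GRCm38.p6, running from 250 bases before to 50 bases after a start site, and 9 of the 10 members had one, in 12 windows. Per2 had none. The capitals mark the E-box CACGTG in Tef and Per1, its variant CACGTT in Nr1d1, the D-box TTANGTAA in Per3, and the AGGTCA core of a ROR element in Per1, Nr1d2, Arntl and Nfil3. Both strands were searched, so a match on the other strand is seen as its reverse complement. Each stretch is written 5′ to 3′ on the gene's strand, and the Arntl one lies after the start.

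Tef, first start (chr15:81802523-81802572, + strand): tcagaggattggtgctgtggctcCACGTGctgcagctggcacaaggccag
Tef, second start (chr15:81811254-81811303, + strand): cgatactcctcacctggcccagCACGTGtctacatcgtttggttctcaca
Per1 (chr11:69098769-69098828, + strand): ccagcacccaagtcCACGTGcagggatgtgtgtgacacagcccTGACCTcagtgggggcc
Per3 (chr4:151044806-151044880, - strand): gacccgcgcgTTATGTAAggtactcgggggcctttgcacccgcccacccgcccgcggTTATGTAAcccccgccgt
Nr1d1 (chr11:98775378-98775437, - strand): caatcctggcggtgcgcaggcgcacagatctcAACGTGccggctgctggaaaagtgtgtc
Nr1d2 (chr14:18239157-18239206, - strand): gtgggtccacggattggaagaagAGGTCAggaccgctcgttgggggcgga
Arntl (chr7:113207531-113207558, + strand): aggcagaaagtAGGTCAgggacggaggt
Nfil3 (chr13:52981040-52981099, - strand): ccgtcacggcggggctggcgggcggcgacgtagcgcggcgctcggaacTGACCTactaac

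The E-box was in 3 of the 12 member windows, and in 7.15% of the 32851 windows of all genes. Its variant was in 1 member window and 4.685% of all windows. The D-box was in 1 member window, with 2 matches in the Per3 promoter, and in 2.323% of all windows. The AGGTCA core was in 4 member windows and 16.26% of all windows. The cAMP response element TGACGTCA was in 0 of the 12 member windows and 1.79% of all windows. Such a match is a run of letters and not a measured site.

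All arrays carried the genotype of their label. Selenbp1 was read at 7.07, 7.02 and 7.02 in WT and 4.13, 3.98 and 4.10 in Selenbp1-KO kidneys, differing by −2.96 (SE 0.0976, adjusted p = 0.0021, limma). The probe was still well above background on the 3 Selenbp1-KO arrays. These values, and all levels below, are log2 signals relative to the 75th percentile of the array's own probes, listed in the order of the replicate numbers, and every difference is Selenbp1-KO minus WT with the standard error (SE) of the limma fit over all probes. A gene is read by its brightest probe. Between 51.8% and 55.5% of the spots of an array were well above background. The 9 kidney markers, from the proximal tubule gene Lrp2 to the podocyte gene Nphs1, were well above background on all 6 arrays, 0 of them passed an unadjusted p of 0.05 by limma, and their median difference was −0.01.

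Over all 37028 genes tested, 2964 (8.00%) had an unadjusted p under 0.05, 1.13% as lower and 6.87% as higher in Selenbp1-KO kidneys. After Benjamini–Hochberg adjustment 2 genes (0.00540%) passed, Selenbp1 and its paralog Selenbp2. The Selenbp2 probe averaged 7.13 in WT and 3.92 in Selenbp1-KO kidneys. The study describes Selenbp2 as close to Selenbp1 in sequence and low in the kidney. Which of the transcripts this probe read was not tested. The groups did not overlap in 14.1% of all genes, with all Selenbp1-KO arrays lower in 3.87% and all higher in 10.2%. The difference was below 0 in 31.6% of all genes and above 0 in 68.4%, and the median over all genes was 0.13. This offset lies in dim genes. The median was 0.38 over the 15879 genes that were not well above background on any array and 0.02 over the 18364 that were well above it on all 6, called bright genes below. Quantile normalization brought the median of all genes to 0.0038, with 47.9% of all genes below 0.

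The 7 genes of the Dbp phase all had lower means in Selenbp1-KO kidneys. Their differences ran from −0.09 in Nr1d1 to −0.39 in Per2, with a median of −0.21, which is −0.34 relative to the median of all genes and −0.23 relative to that of bright genes. The median was −0.26 after quantile normalization. In the same fit the 3 genes of the opposite phase all had higher means, by 0.05 to 1.02. Their median was 0.36, which is 0.24 relative to the median of all genes and 0.35 relative to that of bright genes, and it was 0.37 after quantile normalization. Nfil3, a bright gene, lay at 0.05, below the median of all genes (0.13) but above that of bright genes (0.02). Of the 10 members, the groups did not overlap in 2, Dbp and Per3, against 14.1% of all genes and 19.2% of bright genes. Both were bright. Of the 10, 1 member, Npas2, had an unadjusted p under 0.05, against 8.00% of all genes. In a whole kidney, fewer cells with a transcript and less of it per cell cannot be told apart.

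**Figure D1:**
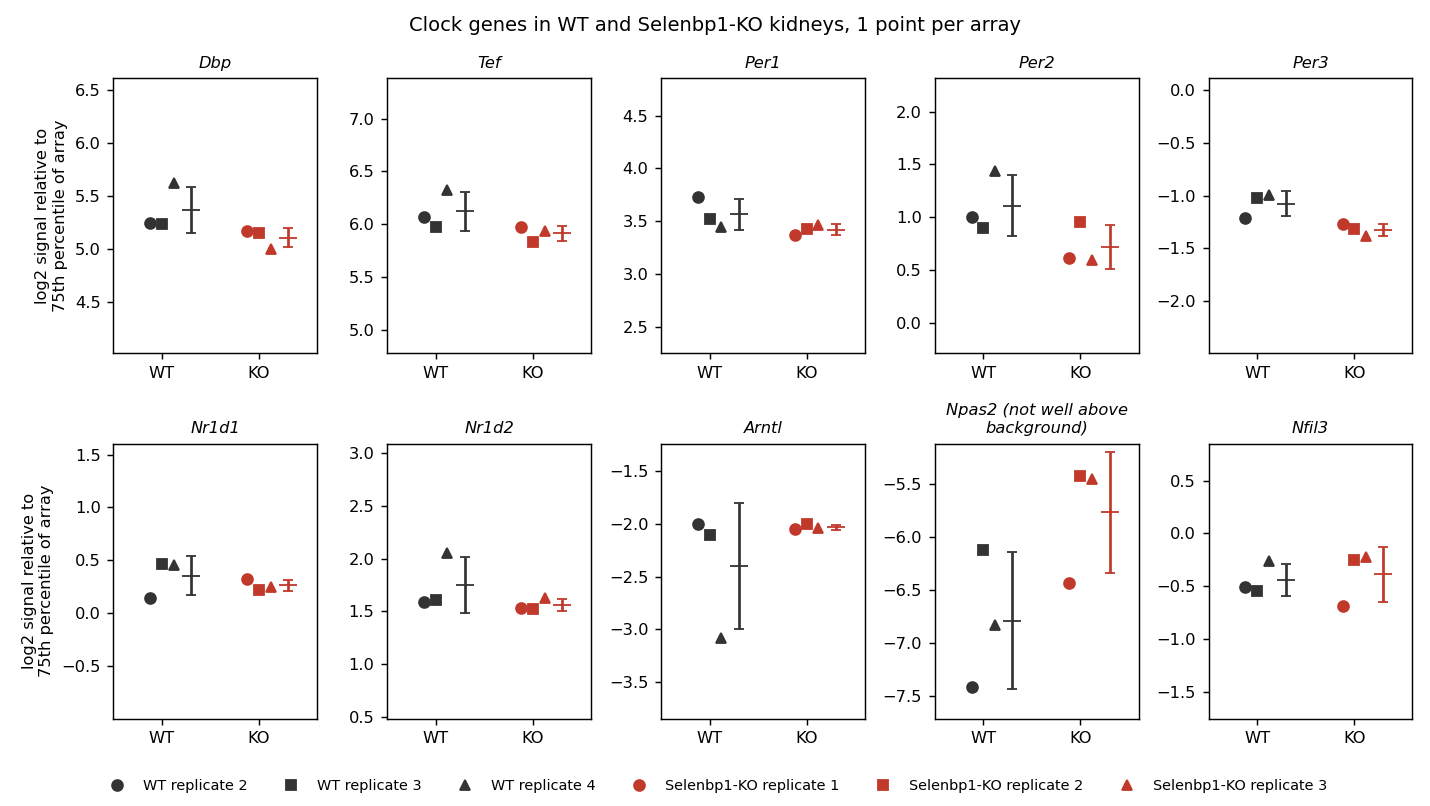
Level of each of the 10 clock genes on each array, as log2 signal relative to the array's 75th percentile (vertical axes of equal span), with the mean ± SD of the 3 arrays of a genotype beside the points. WT replicate 4 (black triangle) is the highest point for Dbp, Tef, Per2, Per3 and Nr1d2 and the lowest for Arntl.

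Dbp encodes a D-box activator and is one of the most rhythmic transcripts of the clock's output. The Dbp signal was 5.25, 5.24 and 5.62 in WT and 5.17, 5.15 and 5.005 in Selenbp1-KO kidneys (probe for NM_016974, chr7:52965265-52965324 on mm9). Every Selenbp1-KO array was below every WT array, though the nearest ones, WT replicate 3 and Selenbp1-KO replicate 1, were close. The means were 5.37 ± 0.22 and 5.11 ± 0.09 (SD, n = 3 each), a difference of −0.26 (SE 0.14) or 1.20-fold, and −0.14 without WT replicate 4. A second Dbp probe differed by −0.30 (SE 0.19), with overlapping groups.

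Tef, the second D-box activator, was read by 4 probes. The Tef signal was 6.07, 5.97 and 6.33 in WT and 5.97, 5.83 and 5.93 in Selenbp1-KO kidneys (NM_017376, chr15:81657221-81657280). Here the groups touched, because WT replicate 3 was as low as Selenbp1-KO replicate 1. The difference was −0.21 (SE 0.13), and −0.11 without WT replicate 4. The other 3 Tef probes differed by −0.35, −0.31 and −0.20, and on the last the groups did not overlap.

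Per1, Per2 and Per3 encode the repressor proteins that pair with the cryptochromes. The Per1 signal was 3.73, 3.52 and 3.44 in WT and 3.37, 3.42 and 3.47 in Selenbp1-KO kidneys (NM_011065, chr11:68923364-68923423), a difference of −0.15 (SE 0.12). Unlike the others of the phase, Per1 was lowest among the WT arrays in replicate 4, which lay below Selenbp1-KO replicate 3. The Per1 difference was −0.06 without WT replicate 2, the highest array, and −0.21 without WT replicate 4. It was −0.02 with slide side entered as a block. The Per2 signal was 1.001, 0.90 and 1.44 in WT and 0.61, 0.96 and 0.59 in Selenbp1-KO kidneys (NM_011066, chr1:93312595-93312654), the largest difference of the phase at −0.39 (SE 0.19) or 1.31-fold. Selenbp1-KO replicate 2 reached into the WT range, and the difference was −0.23 without WT replicate 4 and −0.11 as the mean of both Per2 probes, of which the second was dim. The Per3 signal was −1.21, −1.02 and −0.998 in WT and −1.27, −1.31 and −1.38 in Selenbp1-KO kidneys (NM_001289878, chr4:150378473-150378532), a difference of −0.25 (SE 0.11) with no overlap.

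Further probes of the Per genes added less. A Per1 probe for AK081813 and a second Per2 probe were not well above background on any array. A Per3 probe for NM_011067 was well above background on all 3 WT arrays and on 0 Selenbp1-KO arrays. This makes its mean signal in Selenbp1-KO kidneys at least 1.09-fold lower. The groups overlapped, with Selenbp1-KO replicate 2 (−4.79) above WT replicate 3 (−4.81). The bound sets the mean of the WT arrays against, on each Selenbp1-KO array, the higher of the probe's own value and the lowest signal well above background. The third Per3 probe differed by −0.19 (SE 0.28).

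Nr1d1 and Nr1d2 encode the nuclear receptors that repress the opposite phase. The Nr1d1 signal was 0.14, 0.47 and 0.45 in WT and 0.32, 0.22 and 0.24 in Selenbp1-KO kidneys (NM_145434, chr11:98630526-98631028). All Selenbp1-KO arrays lay within the WT range, and the difference of −0.09 (SE 0.13) was the smallest of the phase. The Nr1d2 signal was 1.58, 1.61 and 2.05 in WT and 1.53, 1.52 and 1.63 in Selenbp1-KO kidneys (BC096461, chr14:19036568-19036627), a difference of −0.19 (SE 0.16). WT replicate 4 stood apart, and without it the differences of Nr1d2 and Nr1d1 were −0.035 and −0.04. On 1 of the other Nr1d2 probes (NM_011584) the groups did not overlap, with a difference of −0.32 (SE 0.12), and on the remaining one the difference was −0.15 (SE 0.11).

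Arntl is the obligate partner of CLOCK and NPAS2, and its transcript is repressed by the NR1D proteins. The Arntl signal was −2.003, −2.11 and −3.08 in WT and −2.05, −2.01 and −2.04 in Selenbp1-KO kidneys (NM_007489, chr7:120456978-120457037). WT replicates 2 and 3 were thus at the level of the Selenbp1-KO arrays, and WT replicate 4 was far below all others. The difference over all arrays was 0.36 (SE 0.29) and was 0.02 without WT replicate 4. WT replicate 4 was the lowest of the 6 arrays on all 3 Arntl probes. The other 2, which were well above background on some arrays only, differed by 0.44 and 0.38.

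Npas2, the alternative to CLOCK, was at the edge of what the array reads. The Npas2 signal was −7.41, −6.12 and −6.83 in WT and −6.43, −5.42 and −5.45 in Selenbp1-KO kidneys (NM_008719, chr1:39418941-39419000). The probe was not well above background on any of the 6 arrays, so no fold is given. The measured difference was 1.02 (SE 0.42), with Selenbp1-KO replicate 1 inside the WT range. It was 0.27 with normexp background correction, and Npas2 had an unadjusted p under 0.05 in 7 of the 17 alternatives that read it. Of the 15879 genes that were also not well above background on any array, 87.6% had a difference above 0 and 1589 had an unadjusted p under 0.05 as higher.

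Nfil3 encodes the repressor that competes with DBP and TEF for D-boxes. The Nfil3 signal was −0.51, −0.54 and −0.27 in WT and −0.68, −0.25 and −0.22 in Selenbp1-KO kidneys (NM_017373, chr13:53062578-53062637). Both the highest and the lowest array were Selenbp1-KO arrays. The difference was 0.05 (SE 0.17), and 0.13 (SE 0.20) on the second probe. Nfil3 was the only member whose sign turned under another setting, to −0.12 with slide side entered as a block, −0.01 without Selenbp1-KO replicate 2 and −0.03 without Selenbp1-KO replicate 3.

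Across probes the direction was shared. Of the 17 probes of the Dbp phase 16 had a lower mean in Selenbp1-KO kidneys, and the 14 that were well above background on all 6 arrays were all lower, 4 of them without overlap. The difference was below 0 in 44.9% of bright genes, and the groups did not overlap in 19.2%. The 6 probes of the opposite phase were all higher and all overlapped, and 3 of these were bright. Probes of 1 gene read the same RNA and are not independent.

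WT replicate 4 was the highest array for most of the Dbp phase and the lowest for Arntl. Of the 14 bright probes of the Dbp phase, 12 had their highest value of the 6 arrays in it. Centring each gene on its mean over the 6 arrays puts the genes on 1 scale. The 7 Dbp-phase genes then averaged 0.02, 0.04 and 0.27 on the WT arrays, and −0.10, −0.09 and −0.13 on the Selenbp1-KO arrays. WT replicates 2 and 3 were above the Selenbp1-KO arrays by less than WT replicate 4 was above them. The 3 opposite-phase genes averaged −0.34, 0.04 and −0.43 in WT and −0.09, 0.41 and 0.40 in Selenbp1-KO kidneys.

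**Figure D2:**
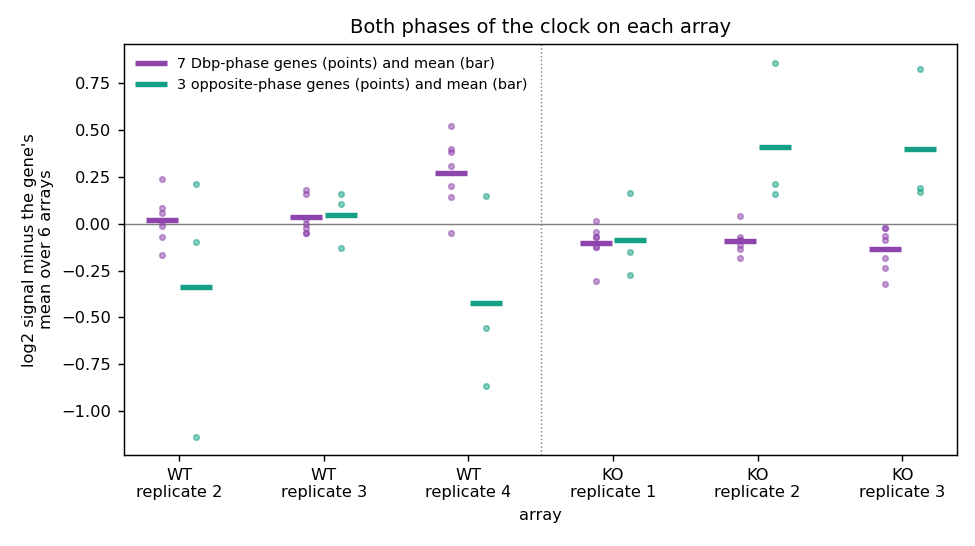
Centred log2 signal (level minus the gene's mean over the 6 arrays, vertical axis) of the 7 Dbp-phase genes (purple) and the 3 opposite-phase genes (green) on each array, with points for genes and bars for their means. The Dbp-phase mean is 0.27 in WT replicate 4 and between −0.13 and −0.09 in the Selenbp1-KO arrays, and the opposite-phase means of WT replicate 2 and of Selenbp1-KO replicates 2 and 3 rest on the dim Npas2 point.

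The distance between the phases, the Dbp-phase mean minus the opposite-phase mean, was 0.36, −0.01 and 0.70 in WT and −0.02, −0.50 and −0.53 in Selenbp1-KO kidneys. WT replicate 3 and Selenbp1-KO replicate 1 met near 0. The group means were 0.35 ± 0.35 and −0.35 ± 0.29 (SD, n = 3). Without Npas2 the distance was −0.04, 0.05 and 0.63 in WT and −0.05, −0.27 and −0.32 in Selenbp1-KO kidneys, and WT replicate 2 then fell to the level of Selenbp1-KO replicate 1. Setting the mean of the Selenbp1-KO arrays against each WT array in turn gave a median over the Dbp phase of −0.14 for WT replicate 2, −0.13 for WT replicate 3 and −0.41 for WT replicate 4. The corresponding medians of the opposite phase were 0.12, 0.16 and 1.05.

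Without WT replicate 4 the 7 genes of the Dbp phase still had lower means, with a median of −0.14, but the median of the opposite phase was 0.14. Since slide side 1 holds WT arrays alone, a block for slide side leaves a fit that sets the Selenbp1-KO arrays against WT replicate 4, and its medians were −0.41 and 1.05. The part of slide side in these values was not tested. The Dbp phase was lower in 7 of 7 genes under each of the 18 alternative settings. Since the members were chosen by these differences, counts of them by p are a description and carry no test. The number of the 10 members with an unadjusted p under 0.05 moved with the setting, as did the share of all genes. It was 0 when WT replicate 4 (31.9% of all genes), WT replicate 2 (3.49%) or Selenbp1-KO replicate 3 (6.63%) was left out. It was 2 with normexp background correction (Dbp and Per2, 11.9% of all genes) and with median scaling (Per2 and Npas2, 26.3%). It was 3 after quantile normalization (9.11%) and with the authors' normalized values (9.09%), in both Dbp, Tef and Per3. Where the number was 1, the member was Per3 with the filter on signal well above background (2000 of 19269 genes passed). It was also Per3 with the methods' t-test (2858 of 37028). It was Per2 without Selenbp1-KO replicate 2 (1803). It was Npas2 with no filter (2966 of 37325), flagged spots kept (2963), the replicate block (12286) and the mean of probes (3332). It was also Npas2 without WT replicate 3 (1689) or Selenbp1-KO replicate 1 (2095). With the trend and robust options of limma the number was 3 (Dbp, Tef and Per2, 14.1%). With slide side entered as a block it was 5 (Dbp, Tef, Per2, Nr1d2 and Arntl, 6.08%), and in the other settings it was 1, though the filter on signal well above background read 9 members only.

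**Figure D3:**
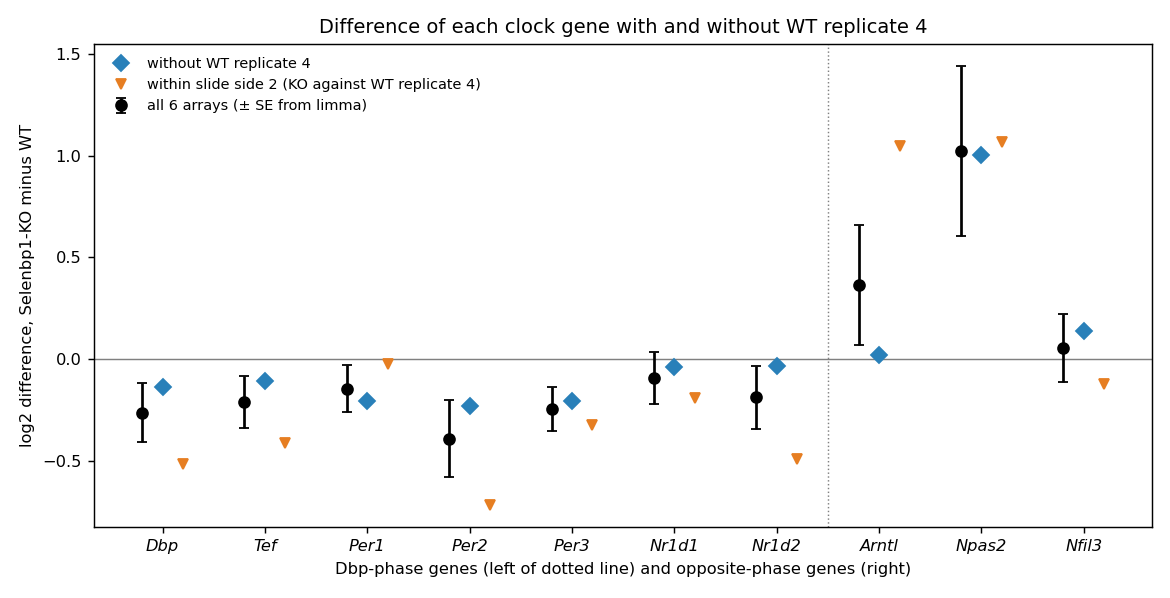
Difference of each clock gene, Selenbp1-KO minus WT on the log2 scale, with all 6 arrays (circles, ± SE of limma), without WT replicate 4 (diamonds) and within slide side 2 (triangles). Arntl moves from 0.36 to 0.02 without WT replicate 4 and to 1.05 within slide side 2, and the 7 Dbp-phase genes stay below 0 in all 3.

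The members also differed in how much the arrays of 1 genotype varied. The WT arrays lie on both slide sides and the Selenbp1-KO arrays on side 2 alone, so differences between mice and between slide sides cannot be told apart in the WT spread. The within-genotype SD of Arntl was 0.42, above that of 96.4% of the 18364 bright genes, whose median was 0.12. The SD of Per2 was above that of 85.9% of bright genes, that of Nfil3 above 80.1%, that of Nr1d2 above 75.9% and that of Dbp above 69.6%. Tef, Nr1d1, Per1 and Per3 lay above 59.0% to 32.8% of them. The SD of the WT arrays was the larger in 9 of 10 members, including 7 of 7 of the Dbp phase, and in 56.4% of bright genes. In Arntl the 3 Selenbp1-KO arrays spanned 0.045 and the WT arrays 1.08, of which WT replicates 2 and 3, both on side 1, were 0.106 apart.

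A list of 17 other clock genes, none of them members, was read in the same fit, and 2 of the 17 passed an unadjusted p of 0.05, both lower. Beside them, 8.00% of all genes passed, and 1.13% as lower. The 2 were Cry2 and Bhlhe40, and 0 passed after adjustment over all genes. Of the 17, 14 were bright, as were these 2. With the filter on signal well above background, 3 of 14 passed as lower (Cry2, Bhlhe40 and Hlf). With that filter 555 of 19269 genes passed as lower. The difference was below 0 in 13 of the 17, against 31.6% of all genes and 44.9% of bright genes, and their median was −0.13. The groups did not overlap in 4, against 14.1% of all genes and 19.2% of bright genes.

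Cry2, a cryptochrome that holds CLOCK and ARNTL inactive together with the PER proteins, had the largest difference of the 17. The Cry2 signal was 2.28, 2.14 and 2.09 in WT and 1.57, 1.75 and 1.62 in Selenbp1-KO kidneys (NM_009963, chr2:92243807-92243866). The WT arrays were all above the Selenbp1-KO arrays, and here WT replicate 4 was the lowest of them. Cry2 fell by 0.53 on the log2 scale (SE 0.11, unadjusted p = 0.00288, adjusted p = 0.279, limma), or 1.44-fold. It passed the unadjusted threshold in each of the 18 alternatives, with differences between −0.58 and −0.39. The difference was −0.56 without WT replicate 4. A second Cry2 probe differed by −0.46 (SE 0.16) without overlap, and the third, dimmer one by −0.20 (SE 0.26).

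Bhlhe40, also called Dec1, encodes a repressor that competes at E-boxes. The Bhlhe40 signal was 1.102, 1.16 and 1.47 in WT and 0.98, 0.91 and 0.77 in Selenbp1-KO kidneys (NM_011498, chr6:108616309-108616368), with no overlap. It fell by 0.36 (SE 0.14, unadjusted p = 0.0426, adjusted p = 0.279, limma). WT replicate 4 was the highest array, as for most of the Dbp phase, and without it the difference was −0.24. Bhlhe40 passed in 11 of the 18 alternatives, and of the 6 that leave out an array it passed only without WT replicate 2.

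Others of the list did not pass. The repressor gene Ciart had a difference of −0.37 (SE 0.22), and −0.19 without WT replicate 4. Its probe (chr3:95682433-95682492) lies on the same chromosome as that of the targeted Selenbp1 (chr3:94748621-94748680). The part of this position in the Ciart difference was not tested. Hlf, the third D-box activator, had 2.36, 2.49 and 2.45 in WT and 2.15, 2.13 and 2.30 in Selenbp1-KO kidneys, differing by −0.24 (SE 0.10) with no overlap. Rora, which encodes an activator at ROR elements, had a difference of −0.20 (SE 0.12). Timeless differed by −0.24 (SE 0.15). Clock, whose protein pairs with ARNTL, differed by −0.03 (SE 0.12), with overlapping groups. Cry1 and Rorb were not well above background on any array.

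**Figure D4:**
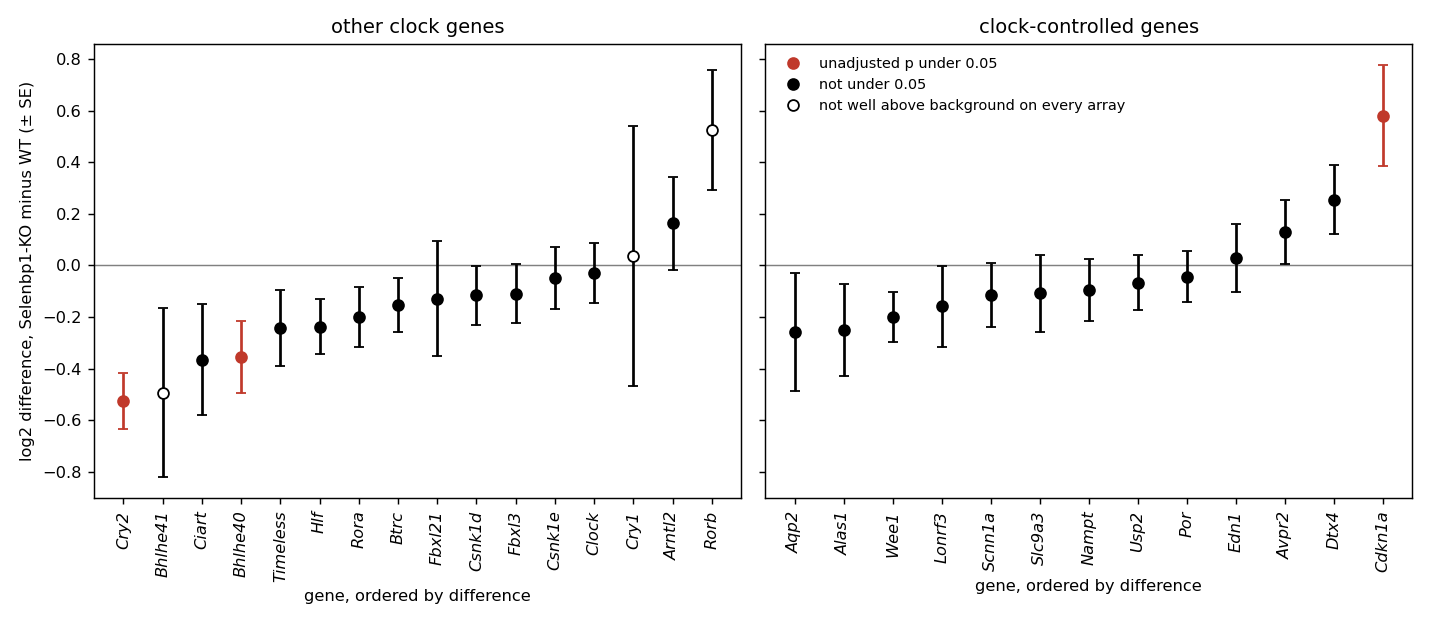
Difference of 16 of the other clock genes (left) and 13 clock-controlled genes (right), Selenbp1-KO minus WT on the log2 scale (vertical axis, ± SE of limma), ordered by size, with red for an unadjusted p under 0.05 and open circles for probes not well above background on every array. Cry2 (−0.53), Bhlhe40 (−0.36) and Cdkn1a (0.58) are the red points.

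Of 13 clock-controlled genes, all bright, 1 passed, and it was higher. Beside it, 8.00% of all genes passed, and 6.87% as higher. Cdkn1a encodes the cell cycle inhibitor p21. The Cdkn1a signal was −0.50, −0.22 and −0.88 in WT and −0.16, 0.17 and 0.13 in Selenbp1-KO kidneys (NM_007669, chr17:29237377-29237436). WT replicate 4 was the lowest array and the groups did not overlap. Cdkn1a rose by 0.58 (SE 0.20, unadjusted p = 0.0256, adjusted p = 0.279, limma), and passed in 12 of the 18 alternatives. The call was lost without WT replicate 4 (0.41), and also when WT replicate 2, Selenbp1-KO replicate 2 or Selenbp1-KO replicate 3 was left out. Its other 2 probes were not well above background on any array.

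The remaining clock-controlled genes had smaller differences. Over the 13 the difference was below 0 in 9, against 44.9% of bright genes, and their median was −0.10. Wee1, a cell cycle kinase gene driven through E-boxes, had 0.25, 0.23 and 0.29 in WT and 0.02, 0.02 and 0.14 in Selenbp1-KO kidneys, differing by −0.20 (SE 0.096) with no overlap. Dtx4 differed by 0.25 (SE 0.14), also with no overlap. Among genes of renal transport, the water channel Aqp2 differed by −0.26 (SE 0.23) and the sodium–proton exchanger Slc9a3 by −0.11 (SE 0.15). The sodium channel subunit Scnn1a differed by −0.11 (SE 0.12). The vasopressin receptor gene Avpr2 went the other way, by 0.13 (SE 0.12). Alas1, the first enzyme of heme synthesis, differed by −0.25 (SE 0.18), and Usp2, a deubiquitinase gene, by −0.07 (SE 0.11).

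The bright genes that are not members were ranked by how closely their level followed the distance between the phases over the 6 arrays, as a description. With 6 arrays and this many genes, r values near 1 can arise by chance, and how many would was not tested. Of these 18355 genes, 30 had a Pearson r above 0.95. The highest were Gpt (alanine aminotransferase) at 0.995, Diaph2 at 0.992, Nol8 at 0.99, Cpne4 at 0.984 and Zfp638 at 0.984. In the other direction 49 genes had an r below −0.95, with Rnase4 at −0.992, Pkdcc and Cdkn1a at −0.991, 1700045I11Rik at −0.986 and Ccdc51 at −0.985. The points share the slide, and with Npas2 left out of the distance the r of these genes was 0.861 to 0.925 and −0.941 to −0.844.

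Markers of other cells and of handling were read beside the clock genes. Of all genes, 6.87% passed as higher. Of 8 macrophage genes 6 passed as higher in Selenbp1-KO kidneys, their median difference was 0.54, and the log2 of their summed signal was 3.44 to 3.63 in WT and 3.70 to 3.84 in Selenbp1-KO kidneys. Of 5 red blood cell genes 3 passed as higher, Hbb-b1, Alas2 and Hba-a1, with a summed log2 signal of 8.01 to 8.43 and 8.50 to 9.07. The part of these cells in the clock genes' differences was not tested.

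The remaining lists moved less. Of 11 immediate early genes 0 passed, with a median of −0.06. Of 5 glucocorticoid-induced genes, among them Fkbp5 and Tsc22d3, 0 passed. All 5 had a difference below 0, against 44.9% of bright genes, with a median of −0.11. Of 4 adrenal cortex genes 0 passed, and the defining Cyp11b1 and Cyp11b2 were not well above background on any array.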

How the data were processed

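Kidney RNA of 3 WT and 3 Selenbp1-KO mice was measured on 6 single-dye Agilent arrays of 62976 spots. The authors extracted the scans with Feature Extraction (version 9.5.1.1 per the labels, 10.7.1.1 per the file headers) and deposited linear intensities, corrected for background and spatial trend on each array and not normalized across arrays. A p-value of each spot against its background, computed by the same software, was deposited beside them, as was a table of intensities that the authors had brought to a common distribution with software that is not stated. The number of arrays limits the precision, and exact tests of 3 against 3 cannot go below p = 0.1.

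The log2 signal was taken minus that of the array's 75th percentile over non-control spots. Spots flagged as outliers were left out and spots of a probe averaged. Probes whose detection p was under 0.05 on any array were tested (56097 probes, 37028 genes) with limma (version 3.58.1, R 4.3.3, two-sided), and called, as the study did, at p under 0.05 before adjustment, with Benjamini–Hochberg values alongside. The brightest probe on average over the 6 arrays represents a gene. Names came from the files, updated by accession through RefSeq (GRCm38.p6) for 32994 probes, of which 1535 were renamed. Array coordinates are on mm9. The fit was tested on simulated data.

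The members, the gene lists and the rules were chosen with earlier results of these data known. Named are all members and their probes, every gene of the lists of other clock genes and clock-controlled genes that passed and up to 8 of each list by size, and the 5 genes at each end of the ranking by Pearson r. Clock, Usp2, Slc9a3, Scnn1a and Avpr2 were named for their roles after their values were seen. The alternatives were normexp background correction (offset 50), quantile normalization, median scaling, the authors' normalized intensities, a filter on signal well above background, keeping flagged spots, no filter, limma's trend and robust options (statmod 1.5.0), the methods' t-test, slide side or replicate number as a block, the mean of a gene's probes, and leaving out each array. Leaving out Npas2 was added after the data were seen. Mice numbered alike are different animals, and the deviations of replicates 2 and 3 from their group means correlated at 0.175 and 0.196 across bright genes, so the numbers were not taken as pairs. Array controls, RT-PCR and metabolites were not analysed here, and some genes of the lists are counted but not reported here by name.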

Additional observations from a re-analysis of the deposited data

How the results depend on the processing

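The 7 Dbp-phase genes kept their direction in all 18 alternatives, and so did Arntl in 18 and Npas2 in 17, where its value fell to 0.27 with normexp background correction. Blocking on slide side, the medians moved to −0.41 for the Dbp phase and 1.05 for the opposite phase. Leaving out each array in turn gave −0.27 to −0.14 and 0.14 to 0.56, and leaving out Npas2 gave 0.21 for the opposite phase. Of all genes, 2964 passed, 9756 with median scaling, 5213 with the trend and robust options, and 1293 (without WT replicate 2) to 11813 (without WT replicate 4) with an array left out. Without WT replicate 3 it was 1689 and without Selenbp1-KO replicate 2 it was 1803. The split of higher and lower calls was 2544 and 420, against 1946 and 1426 after quantile normalization and 903 and 1350 when blocked on slide side. The methods' t-test gave 2858, and 2 after Benjamini–Hochberg adjustment.

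With the replicate number as a block, on shared numbers only, 12286 genes passed, with 4 other clock genes (Cry2, Bhlhe41, Cry1 and Rorb) and 1 clock-controlled gene. Of the other clock genes 2 passed, 4 after quantile normalization (Cry2, Bhlhe40, Hlf and Rora), 4 with the authors' values, 4 when blocked on slide side, 4 with the mean of probes, 5 with trend and robust options, and 1 to 3 with an array left out. Without Selenbp1-KO replicate 1, as without Selenbp1-KO replicate 2, the 1 that passed was Cry2. Of the clock-controlled genes 1 passed, 2 after quantile normalization, with the authors' values, with the filter on well above background and with trend and robust options, 3 when blocked on slide side, and 0 to 1 with an array left out. It was 0 without WT replicate 2, WT replicate 4, Selenbp1-KO replicate 2 or Selenbp1-KO replicate 3. The causes were not tested. Signal over background limits Npas2, Cry1 and Rorb, which have no level well above it.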
